A study of Mus musculus with 6 samples.

Results

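The genes described here encode the heat shock proteins and their DnaJ cochaperones, the machinery with which cells fold and refold proteins. They were all rows of the deposited count table whose symbol starts with Hspa, Hspb, Hspd, Hspe, Hsph, Hsp90 or Dnaj, leaving out names that hold -ps, and they numbered 67 of 20620 genes. All 67 passed the filter on low counts, while 2 rows with -ps in their names were left out. Hspa1a, Hspa1b, Dnajb1 and Hsph1 were set apart as the 4 inducible members, and the other 63 were grouped by family and place in the cell. The rule works on names, so it also takes in Hspbp1 and Hspbap1, which encode partners of chaperones, and Hspb11, which encodes a subunit of the intraflagellar transport complex.

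The study compared the hippocampus of male C57BL/6J mice with and without recombination of a mutant Braf allele, with 1 library per mouse made from 10.0 ng of total RNA. The 3 control mice had the genotype Braf Q241R Neo/+ and were 31 to 32 weeks old, and their mutant allele keeps its Neo cassette. The 3 n-Braf mice had the genotype Braf Q241R/+ ;CaMKII-Cre and were 32 to 34 weeks old. The design text places their expression of the mutant kinase in mature excitatory neurons. Every mouse thus carried 1 Q241R allele, no wild-type mouse was analysed here, and the effects of recombination, of the Cre transgene and of age cannot be told apart between these groups. The BRAF kinase passes signals from RAS to ERK, and the Q241R allele serves as a model of cardio-facio-cutaneous syndrome.

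Chaperones of the Hsp70 family bind unfolded stretches of other proteins and let them go in cycles of ATP hydrolysis. J-domain proteins, the products of the Dnaj genes, deliver substrates and start the hydrolysis, and Hsp110 proteins such as Hsph1 exchange the spent nucleotide. Hsp90 acts on proteins that are nearly folded, among them many kinases, and RAF kinases are known clients. Small heat shock proteins hold unfolding proteins without using ATP. In stressed cells heat shock factor 1 binds repeats of GAA in alternating orientation in promoters and induces a subset of these genes. Neurons also use the constitutive members at the synapse, where they take clathrin coats off vesicles and keep the proteins of vesicle fusion folded.

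The promoters of the inducible members are shown because heat shock factor 1 is known to act there. Each run gives the 250 bases before a RefSeq start site on GRCm38.p6, 5′ to 3′ on the strand of the gene. Capitals mark the letters GAANNTTC or TTCNNGAA, which spell 2 alternating units of the heat shock element. Hspa1a is on the minus strand, chr17:34972157-34972406, and Hspa1b on the minus strand, chr17:34959239-34959488. Hsph1 is on the minus strand, chr5:149636337-149636586, and Dnajb1 on the plus strand, chr8:83607925-83608174.
Hspa1a: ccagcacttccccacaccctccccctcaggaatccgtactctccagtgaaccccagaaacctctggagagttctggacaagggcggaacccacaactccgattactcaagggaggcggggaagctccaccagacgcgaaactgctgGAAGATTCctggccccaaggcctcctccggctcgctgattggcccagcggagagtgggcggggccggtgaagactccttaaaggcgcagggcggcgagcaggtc
Hspa1b: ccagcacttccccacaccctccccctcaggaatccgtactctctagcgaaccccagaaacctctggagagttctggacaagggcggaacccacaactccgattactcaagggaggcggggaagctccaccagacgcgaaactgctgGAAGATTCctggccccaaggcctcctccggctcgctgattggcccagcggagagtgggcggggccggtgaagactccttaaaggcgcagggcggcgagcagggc
Hsph1: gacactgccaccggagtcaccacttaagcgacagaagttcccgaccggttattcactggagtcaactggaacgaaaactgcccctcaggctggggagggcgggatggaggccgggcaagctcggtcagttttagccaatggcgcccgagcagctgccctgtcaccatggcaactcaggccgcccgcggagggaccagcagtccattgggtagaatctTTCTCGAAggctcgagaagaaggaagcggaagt
Dnajb1: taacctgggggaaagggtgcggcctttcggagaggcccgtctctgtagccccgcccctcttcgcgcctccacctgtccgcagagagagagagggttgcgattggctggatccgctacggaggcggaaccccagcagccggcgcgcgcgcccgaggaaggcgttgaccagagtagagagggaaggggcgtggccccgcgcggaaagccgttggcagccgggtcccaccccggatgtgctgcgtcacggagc

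Over the full window of 300 bases, which runs on for 50 bases from the start site, the promoters of Hspa1a and Hspa1b were identical at 296 positions. Counted from 1 at the 5′ end of the window, with the base of Hspa1a first and that of Hspa1b last, the substitutions were C44T, T47C, T249G and C276T. In both genes the match lay at position -104 from the start site. The window of Hsph1 held 3 matches, of which the one printed lay at -33 and the others ended past the start site. No window of Dnajb1 held these letters, which says only that this spelling is not there.

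RefSeq promoters were matched by symbol for 55 members, with 72 windows in all because some genes have several start sites. GAANNTTC or TTCNNGAA, each of which reads the same on the other strand, stood in 22.2% of the member windows and in 15.1% of all 32851 promoter windows of the same length. The form with 3 alternating units, which is the shorter form with a further unit of GAA or TTC after any 2 bases, stood in 8.33% of the member windows and in 0.603% of all windows. The 4 genes that held it were Hsph1, Dnajb6, Hspd1 and Hspe1. Hspd1 encodes the mitochondrial chaperonin Hsp60 and Hspe1 its lid, and the genes lie head to head on chromosome 1 with spans that share 112 bases, so their windows overlap. Outside the inducible genes the shorter letters were also found upstream of Hspb1, Hspb6, Dnaja1, Dnaja4, Dnajb4, Dnajc10 and Dnajc27, and just after the start site of Hspb8.

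Libraries held 25227112 to 31832245 counts, and members took 0.745% to 0.856% of them. Braf lay between 115.8 and 123.4 CPM, that is counts set to a common library size after scaling by trimmed means of M values, in the controls and between 183.8 and 205.2 CPM in n-Braf. The 8 markers of hippocampal excitatory neurons were detected, with summed levels of 3014 to 3265 CPM in the controls and 3094 to 3990 CPM in n-Braf. Control 1 stood apart, with 3.26% of its counts on the ribosomal RNA row Rn18s-rs5 against 0.534% to 0.782% elsewhere. Controls 1 and 2 also held RNA of the choroid plexus, with summed markers of 3557 and 2006 CPM against 89.4 to 137.5 CPM in the other 4 libraries.

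In CPM per kb of exon, cytosolic chaperones of the Hsp90 and Hsp70 families were the most abundant members, and their group means lay close together. The length used was that of all annotated exons of a gene joined, so the order depends on that choice. Hsp90ab1, the constitutive cytosolic Hsp90, had a mean level of 479 CPM per kb over the 6 libraries and ranked 24 among all genes. Hspa8, the constitutive Hsp70 that uncoats clathrin vesicles, was at 349 CPM per kb and ranked 34, and Hsp90aa1, the other cytosolic Hsp90, was at 309 CPM per kb and ranked 40. The ranges of Hspa8 and Hsp90aa1 overlapped, although Hspa8 was the higher in 6 of 6 libraries. In CPM not divided by length, the group means of Hspa8 were above those of Hsp90ab1, with overlapping libraries. They were 1509 against 1438 CPM in the controls and 1491 against 1436 CPM in n-Braf. Hsp90b1, the Hsp90 of the endoplasmic reticulum, followed at 71.0 CPM per kb, apart from its neighbours in the order.

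The next members in order of level per kb lay close together. Hspa4, an Hsp110 protein, was at 40.4 CPM per kb, Hspa9, the mitochondrial Hsp70, at 39.9, the class A J-domain protein Dnaja2 at 38.9 and auxilin, Dnajc6, at 38.7. The ranges of neighbours among these 4 overlapped over the libraries. Hspd1, at 33.5 CPM per kb, and Hsph1, at 32.7, closed the highest 10, and their ranges overlapped too. The other inducible members were lower, with 8.24 CPM per kb for Dnajb1, 4.32 for Hspa1a and 4.31 for Hspa1b. At the low end, 12 members had a mean under 5 CPM, among them the testis-type Hsp70 gene Hspa1l.

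**Figure D1:**
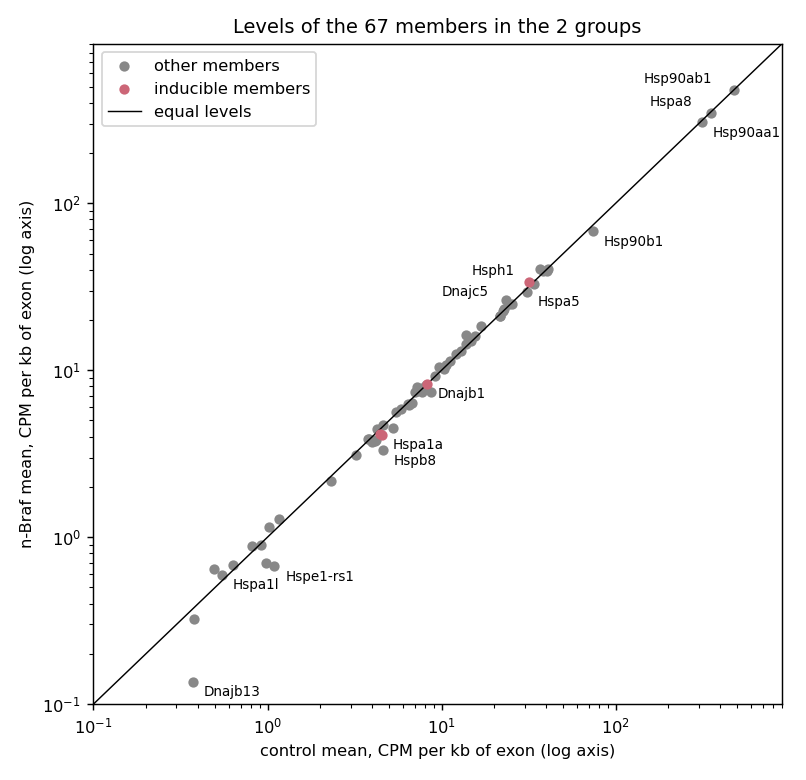
Mean level of each of the 67 members in CPM per kb of exon, control on the x axis and n-Braf on the y axis, both log axes, with the line of equal levels. The points lie along the line from Hsp90ab1 at the top to the members with few counts at the bottom, where Dnajb13 lies farthest below it.

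Levels of the 3 most abundant chaperones were compared in the original CPM. Hsp90ab1 was at 1390, 1447 and 1476 CPM in the controls and at 1495, 1297 and 1515 CPM in n-Braf. Hspa8 was at 1355, 1586 and 1585 CPM in the controls and at 1478, 1395 and 1599 CPM in n-Braf. Hsp90aa1 was at 1146, 1229 and 1320 CPM in the controls and at 1240, 1091 and 1266 CPM in n-Braf. The groups overlapped for each gene, with control 1 or n-Braf 2 the lowest. The 95% interval of the log2 fold change, n-Braf over control, ran from -0.18 to 0.18 for Hsp90ab1, from -0.21 to 0.18 for Hspa8 and from -0.23 to 0.15 for Hsp90aa1. All 67 members summed to 8119 ± 395 CPM in the controls and 8108 ± 426 CPM in n-Braf (SD, n = 3 each), a ratio of 0.999.

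No member passed the test between the groups. With edgeR's quasi-likelihood test and Benjamini-Hochberg adjustment over 20604 genes, 0 of 67 members passed an adjusted p of 0.05, as did 0% of all genes. The smallest adjusted p of a member was 0.699. Braf, the recombined gene itself, had a log2 fold change of 0.69 and an adjusted p of 0.0533 by edgeR, so it did not pass either. Limma-voom called 0 members and 0% of genes, and DESeq2 called 0 members and 79 genes, or 0.425% of those with an adjusted p. At an unadjusted p below 0.05 there were 3 members, 2 of them higher in n-Braf and 1 lower, or 4.48% of members. The share over all genes was 6.82%, with 3.09% higher and 3.73% lower. The groups did not overlap for 2 members that were higher and 1 that was lower, again 4.48%, against 11.5% of all genes, 6.09% higher and 5.44% lower. With DESeq2, 5 members had an unadjusted p below 0.05, or 7.46%, against 5.59% of all genes, so whether the members' share lay above or below that of all genes depended on the tool and rested on a few genes. Without control 1, 0 members were called and 1 member, Dnajc24, had an unadjusted p below 0.05, against 4.59% of all genes. With controls 1 and 2 both left out, with the lone control taken to vary as the n-Braf libraries do, 0 members were called and Dnajc24 alone had such a p, against 3.15% of all genes.

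The size of the differences was bounded closely. The median log2 fold change was 0.0042 over the 67 members and -0.0042 over all genes, and 35 members, 52.2%, had a value above 0 and 32 one below, where 49% of all genes were above 0. For 57 members, 85.1%, the 95% interval lay within a fold of 1.5 in either direction, against 56.9% of all genes. Among genes with a mean of at least 5 CPM the shares were closer, at 96.4% of 55 members and 90.6% of 11748 genes. Of those 55 members, 42 had a log2 fold change within 0.1 of 0, and the values ran from -0.48 for the small heat shock protein Hspb8 to 0.23 for the J-domain protein Dnajb5. These members varied within groups about as much as all genes at that level, with a median SD of log2 CPM of 0.108 against 0.116.

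**Figure D2:**
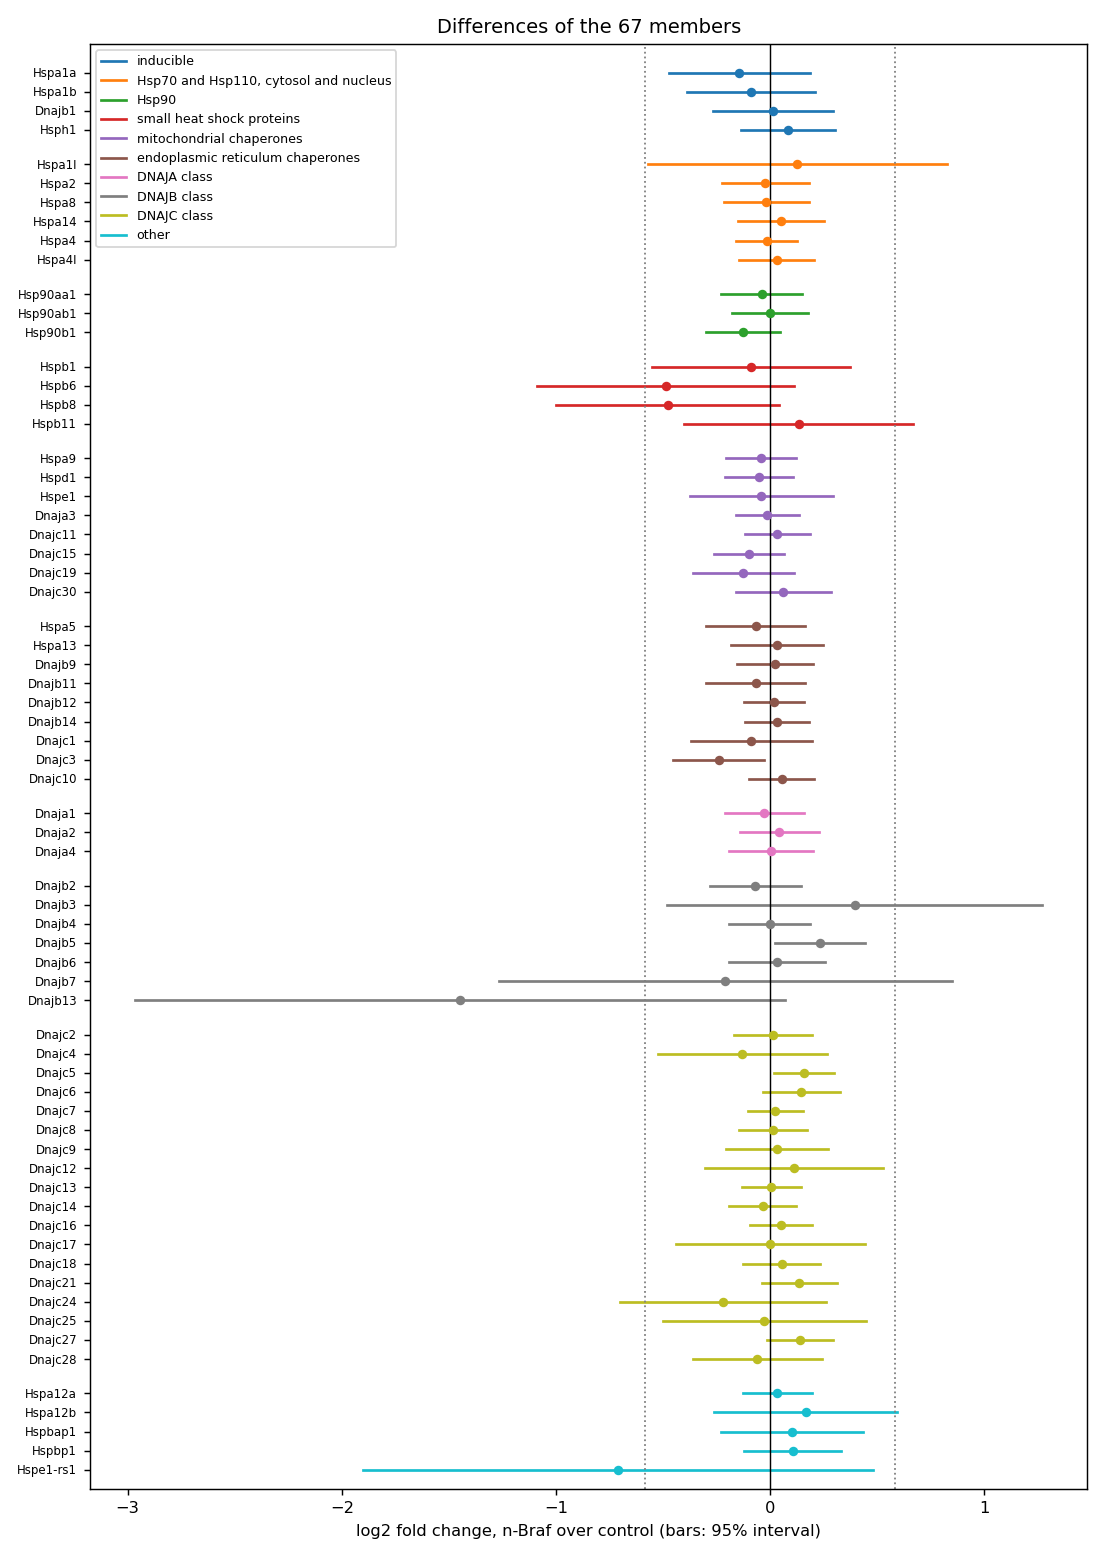
Log2 fold change of each of the 67 members, n-Braf over control, with its 95% interval as a bar, coloured by family or place in the cell. Dotted lines mark a fold of 1.5 in each direction, and 57 bars lie between them. The longest bar belongs to Dnajb13.

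The inducible genes, whose RNA rises in cells under heat or proteotoxic stress, did not differ between the groups beyond the spread between libraries. Hspa1a, an inducible Hsp70 on chromosome 17 (GENCODE M21, GRCm38, 34969190 to 34972156, minus strand), measured 12.5, 11.9 and 16.1 CPM in the controls and 10.7, 13.8 and 12.1 CPM in n-Braf, in the order of the replicate numbers that all values below follow. Its highest value was that of control 3 and its lowest that of n-Braf 1, and the groups overlapped. The means were 13.5 ± 2.29 and 12.2 ± 1.51 CPM (SD, n = 3 each). The log2 fold change was -0.14 with an SE of 0.15 and an edgeR adjusted p of 0.919, and the interval of the fold ran from 0.720 to 1.14. It was 0.0902 with age in weeks as a term, and -0.401 against control 3 alone, with an unadjusted p of 0.0513 by edgeR.

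Hspa1b, the near-identical second copy (chromosome 17, 34956436 to 34959238, minus strand), was at 10.6, 14.3 and 12.5 CPM in the controls and at 10.6, 12.3 and 12.3 CPM in n-Braf. Control 1 and n-Braf 1 were the lowest and the groups overlapped. Its log2 fold change was -0.09 with an SE of 0.13 and an edgeR adjusted p of 0.955, and the interval of the fold ran from 0.764 to 1.16. The genes are 9951 bases apart, and 58.8% of the 50-base stretches of the Hspa1a transcript also occur in Hspa1b, so the split of reads between them is uncertain. Their deposited counts are not whole numbers in any library, as in Hspa1a with 333.86 in control 1. Summed, the pair was at 23.0, 26.1 and 28.6 CPM in the controls and at 21.3, 26.1 and 24.3 CPM in n-Braf. When the counts were summed before the fit, the log2 fold change was -0.12 with an SE of 0.11 and an edgeR adjusted p of 0.911.

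Dnajb1, the J-domain partner of inducible Hsp70 (chromosome 8, 83608193 to 83612653, plus strand), was at 22.7, 28.0 and 28.1 CPM in the controls and at 22.9, 30.1 and 26.6 CPM in n-Braf. Control 1 and n-Braf 1 were again the lowest, and the other libraries of both groups lay together above them. Dnajb1 had a log2 fold change of 0.014 with an SE of 0.12 and an edgeR adjusted p of 0.996, and the interval of the fold ran from 0.831 to 1.23.

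Hsph1, the inducible Hsp110 (chromosome 5, 149614287 to 149636376, minus strand), was at 205.8, 253.8 and 233.4 CPM in the controls and at 228.1, 233.0 and 273.3 CPM in n-Braf. Control 1 was the lowest and n-Braf 3 the highest, with the rest of both groups between them. Hsph1 had a log2 fold change of 0.08 with an SE of 0.10 and an edgeR adjusted p of 0.936, and the interval of the fold ran from 0.910 to 1.23. With age as a term it was -0.0286.

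**Figure D3:**
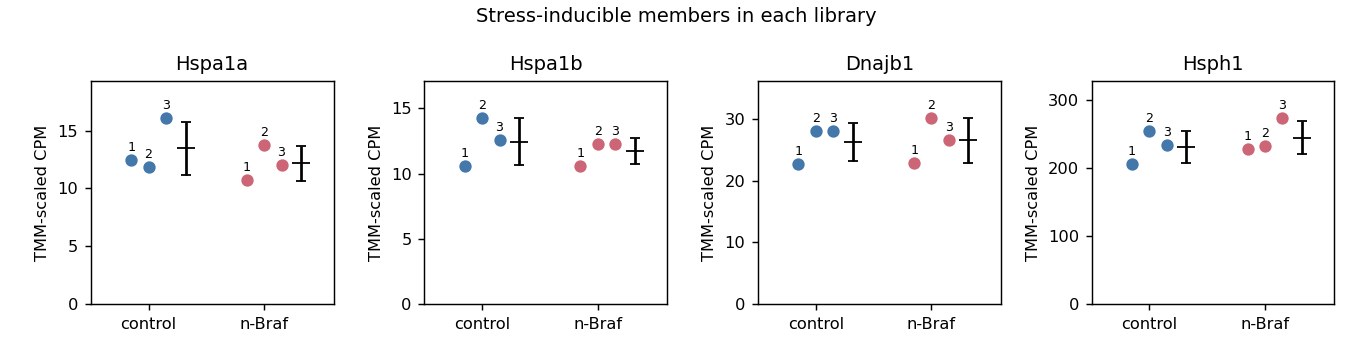
TMM-scaled CPM of the 4 inducible members in each library, numbered by replicate, with the mean and SD (n = 3) of each group beside the points. The groups overlap in every panel, and control 1 and n-Braf 1 are the lowest pair for Hspa1b and Dnajb1.

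As a list, the 4 inducible members had a median log2 fold change of -0.038, beside 0.0042 for the other 63. They varied more between libraries than members at large, with a median SD within groups of 0.181 on the log2 scale against 0.115. The median was 0.183 over all genes tested and 0.116 over those with a mean of at least 5 CPM. In control 1 and n-Braf 1 their median deviation from each gene's mean was -0.192 and -0.194, and in the remaining 4 libraries it was between 0.024 and 0.096. The spread within groups thus exceeded the difference between them. The other 63 members lay within -0.037 and 0.019 by the same measure. Without control 1 the median log2 fold change was -0.139 for the inducible members and -0.018 for the others, and with controls 1 and 2 left out it was -0.0916 and -0.0201.

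The smallest p of any member was that of Dnajc5, a gene of the synapse. It encodes cysteine string protein, which sits on synaptic vesicles and with Hsc70 keeps the fusion protein SNAP25 folded. It was at 155.7, 168.3 and 167.5 CPM in the controls and at 189.4, 182.1 and 177.4 CPM in n-Braf, so that every n-Braf library lay above every control. The log2 fold change was 0.16 with an SE of 0.06 and a 95% interval from 0.02 to 0.30. The unadjusted p by edgeR was 0.0306 and the adjusted p 0.699, so the difference did not pass. Without control 1 the log2 fold change was 0.123, with an unadjusted p of 0.11 by edgeR.

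Dnajc6 encodes auxilin, the neuronal J-domain protein that brings Hsc70 to clathrin coats. It was at 200, 222.8 and 228.2 CPM in the controls and at 260.8, 233.5 and 225.3 CPM in n-Braf. The groups overlapped through n-Braf 3, and the log2 fold change was 0.14 with an SE of 0.08 (edgeR, unadjusted p = 0.102). It was 0.078 without n-Braf 1, 0.0881 without control 1 and 0.0719 against control 3 alone. Gak, the auxilin relative of all cells, is named outside the Dnaj scheme, and its log2 fold change was 0.11 with an SE of 0.06 (unadjusted p = 0.0800). The list of uncoating and vesicle upkeep held 3 genes, and its median of 0.145 was the value of Dnajc6, between Hspa8 and Dnajc5. Markers of excitatory neurons had a median log2 fold change of 0.14, with 6 of 8 above 0 and the vesicular glutamate transporter Slc17a7 at 0.17, and whether they share in these values was not tested. In such bulk samples fewer cells of a type and less RNA per cell cannot be told apart.

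Dnajb5, a class B J-domain protein close to Dnajb1 in sequence, was at 77.95, 84.14 and 82.77 CPM in the controls and at 87.66, 89.59 and 110.6 CPM in n-Braf. The groups did not overlap, and n-Braf 3 stood above the rest. Dnajb5 had a log2 fold change of 0.23 with an SE of 0.09, an unadjusted p of 0.0325 and an adjusted p of 0.712 by edgeR. Its log2 fold change was 0.116 without n-Braf 3 and 0.0834 with age as a term, and without control 1 the unadjusted p by edgeR was 0.0904.

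The remaining J-domain proteins are given by class. The 4 class A genes had log2 fold changes from -0.027 to 0.042. The 12 tested class B genes had a median of 0.016, with 7 above 0 and 5 below, and ranged from -1.45 for Dnajb13 to 0.39 for Dnajb3, both of which had a mean under 5 CPM. In the 25 tested class C genes the median was 0.013, with 16 above 0 and 9 below, and the range ran from -0.24 for Dnajc3 to 0.16 for Dnajc5. Dnajc27, a J-domain protein with a small GTPase fold, was at 83.5 to 87.8 CPM in the controls and 86.9 to 99.9 CPM in n-Braf, with a log2 fold change of 0.14 and an SE of 0.07. It was 0.0919 without n-Braf 2, and 0.259 with age as a term (edgeR, unadjusted p = 0.0119). Dnajc21, which acts in the maturation of ribosomes, was at 32.6 to 35.4 CPM and 35.1 to 40.0 CPM, also with a log2 fold change of 0.14 and an SE of 0.08. Dnajc24, a cofactor of diphthamide synthesis, had the widest range of its class over the libraries, from 4.92 CPM in control 1 to 9.38 CPM in control 3. Its n-Braf libraries lay between 6.01 and 6.40 CPM.

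The Hsp70 and Hsp110 proteins of cytosol and nucleus, 9 genes, had a median log2 fold change of -0.017. Hspa4 and Hspa4l, which exchange the nucleotide of Hsp70, were at -0.02 and 0.03, each with an interval inside 0.21 of 0. Hspa1l, which lies 546 bases from Hspa1a in the opposite direction and shares 9.57% of its 50-base stretches with it, was the most variable of the family, from 1.001 CPM in n-Braf 1 to 1.92 CPM in n-Braf 2. Hspbp1, which releases nucleotide from Hsp70, was at 0.10 with an SE of 0.10.

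In the endoplasmic reticulum, 5 of 10 members were above 0 and 5 below, with a median of -0.025. Dnajc3 encodes a J-domain protein of this compartment, also known as an inhibitor of the stress kinase PERK. It was at 48.8, 46.2 and 40.0 CPM in the controls and at 34.6, 39.5 and 40.2 CPM in n-Braf. Controls 1 and 2 were high, and n-Braf 3 lay just above control 3, so the groups overlapped. Dnajc3 had a log2 fold change of -0.24 with an SE of 0.09, an unadjusted p of 0.0308 and an adjusted p of 0.700 by edgeR. It was -0.18 without control 1 and -0.0718 against control 3 alone.

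Hsp90b1 was at 293.0, 310.7 and 293.4 CPM in the controls and at 285.7, 246.6 and 289.2 CPM in n-Braf. All n-Braf libraries lay below all controls, and n-Braf 2 was the lowest. Its log2 fold change was -0.13 with an SE of 0.08 (edgeR, unadjusted p = 0.130). It was -0.0574 without n-Braf 2, and -0.258 with age as a term (edgeR, unadjusted p = 0.0276). Hspa5, the Hsp70 of this compartment known as BiP and the usual readout of its stress response, was at 115.1, 153.4 and 124.5 CPM in the controls and at 125.6, 118.5 and 130.8 CPM in n-Braf. Control 2 stood above all others, and the interval of the log2 fold change ran from -0.30 to 0.16. Dnajc1, a J-domain protein of the reticulum membrane, spread from 35.2 CPM in n-Braf 1 to 52.4 CPM in n-Braf 3 around controls at 45.9 to 46.9 CPM.

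The 8 mitochondrial chaperones had a median log2 fold change of -0.042, with 6 below 0, and ranged from -0.13 for the import factor Dnajc19 to 0.06 for Dnajc30. Hspa9 was at -0.04 with an SE of 0.07 and Hspd1 at -0.05 with an SE of 0.07. Hspe1 was more variable, at 26.1, 32.9 and 36.9 CPM in the controls and at 33.9, 25.4 and 33.9 CPM in n-Braf. Control 1 and n-Braf 2 were its low libraries, as for many members. Over all 67 genes control 1 was the lowest library for 18 members and n-Braf 2 for 15, and n-Braf 3 the highest for 19. These counts were made for members alone, so whether they are particular to the members is not known.

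The small heat shock proteins were few and scarce in this tissue, with 4 of 8 listed genes tested, Hspb11 included by its name. Their median log2 fold change of -0.284 was the lowest of the member groups. Hspb8, which works with the cochaperone Bag3 in the clearance of aggregates, was at 12.6, 6.32 and 8.10 CPM in the controls and at 6.98, 6.45 and 5.96 CPM in n-Braf. Control 1 stood above all others, and the remaining libraries overlapped. Hspb8 had a log2 fold change of -0.48 with an SE of 0.23 (edgeR, unadjusted p = 0.0668), and without control 1 it was -0.158.

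Hspb6, abundant in muscle, was at 2.80, 2.36 and 1.64 CPM in the controls and at 1.31, 1.86 and 1.67 CPM in n-Braf. Controls 1 and 2 were high and control 3 lay among the n-Braf libraries. The log2 fold change was -0.49 with an SE of 0.27, and it was -0.309 without control 1 and -0.0201 against control 3 alone. Hspb1, the heat-inducible Hsp27, lay between 2.08 and 2.77 CPM in all libraries, with a log2 fold change of -0.09 and an SE of 0.20. Markers of mural and smooth muscle cells, where such genes are usually high, summed to 249.3, 162.4 and 195.4 CPM in the controls and to 234.9, 194.2 and 162.5 CPM in n-Braf, with 5 of 8 below 0 and none at 0, and their part in these values was not tested.

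Dnajb13, a protein of the radial spokes of sperm tails and motile cilia, had the lowest log2 fold change of any member. Its deposited counts were 51, 25.1 and 6 in the controls and 18, 11 and 6 in n-Braf, or 1.90, 0.935 and 0.234 CPM and 0.563, 0.346 and 0.204 CPM. Controls 1 and 2 were high, while control 3 lay below n-Braf 1 and 2. The log2 fold change was -1.45 with an SE of 0.67 (edgeR, unadjusted p = 0.0591), and it was -0.647 without control 1 and 0.668 against control 3 alone. Markers of ependyma and motile cilia, 12 of 13 tested and none at 0, summed to 133.4, 121.2 and 79.5 CPM in the controls and to 69.3, 57.4 and 78.3 CPM in n-Braf, with all 12 below 0. Choroid plexus markers, 10 of 12 tested and none at 0, were all below 0 as well and were highest in the same 2 controls. The part of these cells in the values of Dnajb13, Hspb8, Hspb6 and Dnajc3 was not tested. The exons of Dnajb13 also overlap those of Ucp2 on the other strand.

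**Figure D4:**
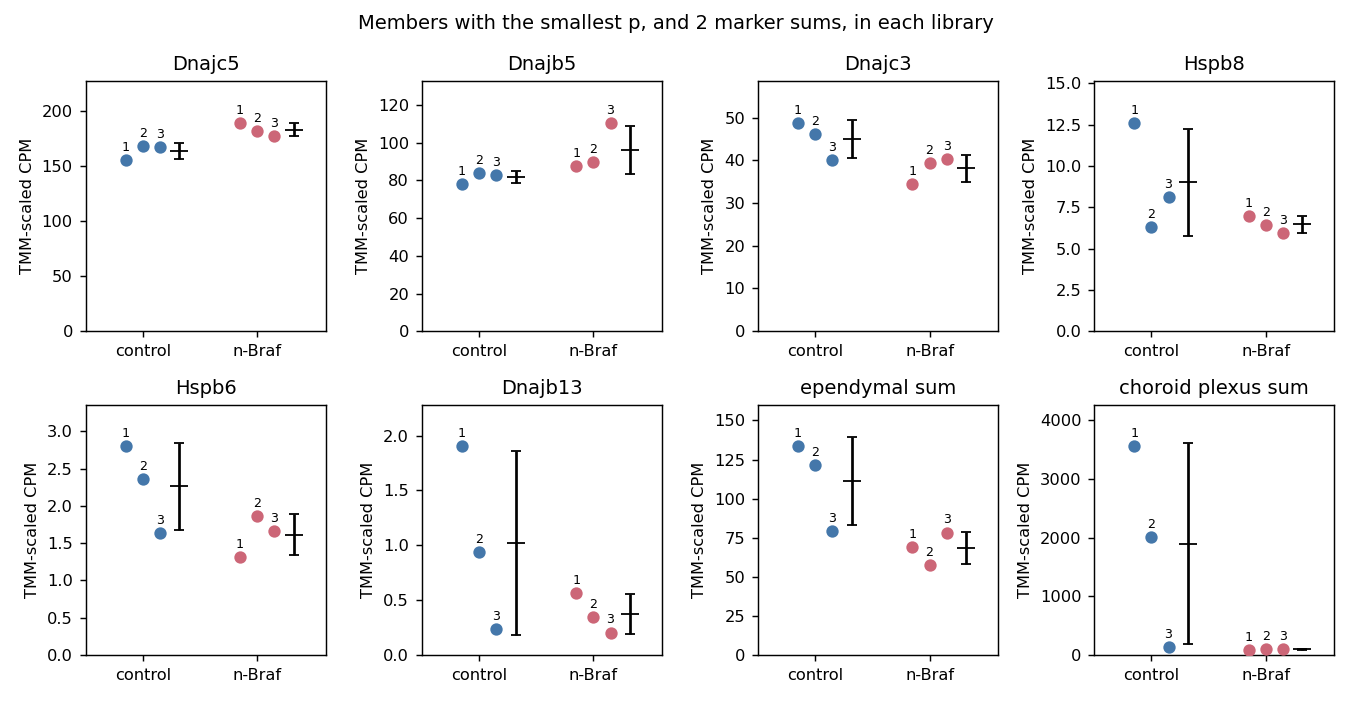
TMM-scaled CPM of 6 members with small unadjusted p, and the summed CPM of the ependymal and the choroid plexus markers, in each library, with the mean and SD (n = 3) beside the points. Controls 1 and 2 are the highest libraries for Dnajc3, Hspb6, Dnajb13 and both marker sums, and the groups are apart for Dnajc5 and Dnajb5.

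Other genes of the pathway gave 0 calls in each list at an adjusted p of 0.05 by edgeR. Hsf1, the main heat shock factor, was at 21.5, 22.1 and 22.6 CPM in the controls and at 23.1, 23.5 and 21.9 CPM in n-Braf, with a log2 fold change of 0.05 and an SE of 0.08. Hsf4 was at 4.74, 4.34 and 5.49 CPM in the controls and at 4.32, 4.25 and 4.02 CPM in n-Braf, with no overlap. Its log2 fold change was -0.21 with an SE of 0.16 (edgeR, unadjusted p = 0.217). The 5 heat shock factor genes had a median of 0.019, with 3 above 0 and 2 below. The groups did not overlap for 20% of this list, against 11.5% of all genes. The 29 cochaperones of Hsp70 and Hsp90 had a median of 0.0096, with 17 above 0, 12 below and none at an unadjusted p below 0.05. Among them Fkbp5, a cochaperone induced by glucocorticoids, was at 37.8 to 38.5 CPM in the controls and at 36.0, 48.4 and 49.8 CPM in n-Braf, with a log2 fold change of 0.23 and an SE of 0.12. The chaperonin CCT with prefoldin, 14 genes, had a median of -0.0077, and 8 genes of mitochondrial protein upkeep one of -0.038.

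Among 13 listed targets of heat shock factor 1 outside the members, 9 were below 0, and 2 of these had an unadjusted p below 0.05 by edgeR. Over all genes 49% were above 0 and 6.82% had such a p, with 3.73% lower. The groups did not overlap for 15.4% of the list, against 11.5% of all genes. Bag3, Stip1, Chordc1, Ahsa1, Ahsa2 and Fkbp4 were also counted among the cochaperones, and Tcp1 with the chaperonin. Serpinh1, the collagen chaperone Hsp47, was at 14.3, 10.6 and 9.85 CPM in the controls and at 8.17, 5.85 and 6.09 CPM in n-Braf, with no overlap. Its log2 fold change was -0.79 with an SE of 0.18, an unadjusted p of 0.00196 and an adjusted p of 0.527 by edgeR. Cryab, a small heat shock protein of oligodendrocytes and other glia, was at 19.7, 20.8 and 21.9 CPM in the controls and at 16.7, 15.9 and 19.4 CPM in n-Braf, also with no overlap. Its log2 fold change was -0.26 with an SE of 0.10 and an adjusted p of 0.690 by edgeR. All 8 myelin markers were below 0 too, summing to 1928, 1658 and 2149 CPM in the controls and to 1414, 1439 and 1930 CPM in n-Braf with none at 0, and their part in the value of Cryab was not tested.

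Of 20 genes of the endoplasmic reticulum stress response, 8 were above 0 and 12 below, with a median of -0.020. Pdia4, a disulfide isomerase, was at 62.7, 71.1 and 60.4 CPM in the controls and at 52.8, 48.9 and 59.1 CPM in n-Braf. The groups did not overlap, and the log2 fold change was -0.27 with an SE of 0.09 (edgeR, unadjusted p = 0.0145, adjusted p = 0.630). Sil1, the nucleotide exchange factor of BiP, was at -0.29 with an SE of 0.13. The remaining named genes of this list were Herpud1 at -0.20 and Pdia3 at -0.16.

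Immediate early genes, which respond to RAS-ERK signalling and neuronal activity, were set beside the chaperones as a list of other inducible genes. Their median log2 fold change was 0.297, with 14 of 16 above 0 and 6, all higher in n-Braf, at an unadjusted p below 0.05 by edgeR. Over all genes 49% were above 0 and 6.82% had such a p, with 3.09% higher. Egr3 was at 59.6, 70.5 and 68.8 CPM in the controls and at 87.8, 83.7 and 84.0 CPM in n-Braf, with a log2 fold change of 0.36 and an SE of 0.07 (edgeR, adjusted p = 0.527). By library, the list's median deviation was -0.123, -0.371 and 0.134 in the controls and 0.168, 0.171 and -0.0149 in n-Braf. Controls 1 and 2 were thus low and control 3 lay among the n-Braf libraries. In summed CPM control 3, at 647, lay just below n-Braf at 656.1 to 700.1. Controls 1 and 2 also held choroid plexus RNA, and values without them are not given for this list. The inducible chaperones were low in control 1 and n-Braf 1. The difference between the lists was not tested.

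**Figure D5:**
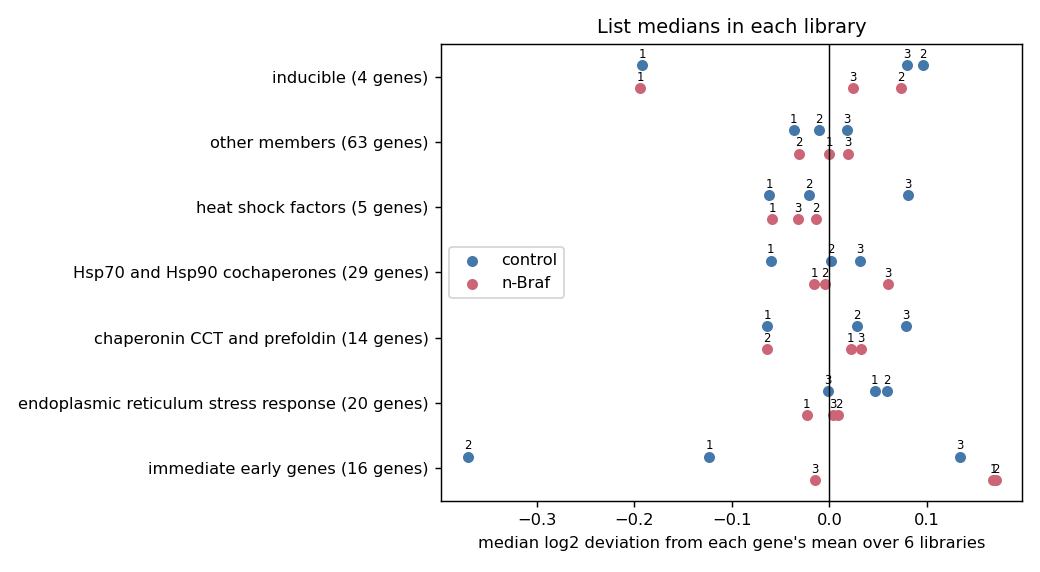
Median over the genes of a list of the log2 deviation from each gene's mean over the 6 libraries, 1 point per library, numbered by replicate. The inducible chaperones are low in control 1 and n-Braf 1, the other 63 members stay close to 0, and the immediate early genes are lowest in control 2.

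The authors' deposited table lists log2 fold changes of the same size, with -1.45 for Dnajb13, 0.233 for Dnajb5 and -0.241 for Dnajc3. In the authors' deposited table these 3 members have p-values of 0.0354, 0.0364 and 0.0428, and no member has an adjusted p below 0.925. Dnajc5 has a p-value of 0.0886 in the authors' deposited table.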

How the data were processed

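RNA of 6 hippocampi was sequenced with a stranded SMART-Seq kit, per the labels' protocols. Per the submitters' processing notes, bcl2fastq 2.20, fastp 0.20.1, STAR, RSEM and edgeR 3.36.0 were used with mm10. For STAR and RSEM no version is given in the sources used here, and neither is the annotation release or how strand was set. Values in the deposited table are expected counts, which share ambiguous reads among genes, and 32 members have a count that is not whole. It also holds the authors' log2 fold changes, mean log2 CPM and p-values.

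Expected counts were rounded, filtered with filterByExpr (minimum count 10, 20604 genes kept), scaled by TMM (trimmed means of M values) and tested with edgeR 4.0.16 (quasi-likelihood, R 4.3.3, all 6 libraries, group as the only term), with Benjamini-Hochberg adjustment over all genes. The threshold was an adjusted p of 0.05, and log2 fold changes above 0 mean a higher level in n-Braf. Log2 CPM used a prior count of 2. The test was also run on simulated counts with known fold changes, where it did not call all of the changed genes. DESeq2 1.42.0, limma-voom (limma 3.58.1), other scalings and filters, a replicate block, age as a covariate and left-out libraries were alternatives.

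The members and lists were chosen with earlier results of these data known. The text names the inducible members, members with an unadjusted p below 0.05, the 10 smallest p, the 10 highest levels per kb and the widest range in each member list. Of the 4 genes with the smallest p in each pathway list it names some or all. For the chaperonin and mitochondrial upkeep lists it names none of them. Hspb1, Hspa5, Hspa4l, Hspbp1, Dnajb3, Dnajc19, Dnajc30 and Slc17a7 were added after their values were seen, for their known roles or as the ends of a range. No library was a copy of another, since chi-square over genes was at least 8.99 per degree of freedom for each pair. Each mouse has its own number in the labels. Exons of 23 members overlap another gene on the opposite strand, as Hspd1 does with Hspe1, and those of 9 members overlap one on the same strand, and with the strand setting unknown such reads may be shared. Protein sequences were not used here.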

Additional observations from a re-analysis of the deposited data

How the results depend on the processing

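No member was called in any of 16 alternatives that changed the scaling, test, filter, covariates or libraries, and the smallest adjusted p of a member ranged from 0.331 to 1. The median log2 fold change ranged from -0.139 to 0.0431 for the inducible members and from -0.0201 to 0.0267 for the others. The count of all genes called was 0 with edgeR as described, 79 with DESeq2, 3 with controls 1 and 2 left out together, 2 at an adjusted p of 0.1, and 0 to 82 when 1 library was left out, with the 82 reached without control 3. Signs changed for the inducible members, whose values were near 0, and also for Dnajb13, which was far from 0 at -1.45 with edgeR as described. Dnajb1 was at -0.00813 with library size alone and at -0.0836 with controls 1 and 2 left out, and ranged from -0.0879 to 0.109 with 1 library left out. With age as a covariate Hspa1a was at 0.0902 and Hsph1 at -0.0286, and with 1 library left out Hspa1a ranged from -0.241 to 0.00301, Hspa1b from -0.196 to 0.0174 and Hsph1 from -0.00589 to 0.156. Dnajb13 was at 0.668 with controls 1 and 2 left out, and was removed by a filter at a mean of 1 CPM. The cause of these changes was not tested. Replicate numbers do not pair the mice, with correlations of deviations of 0.103, -0.0457 and -0.0145 for equal numbers. With the replicate block 0 genes and 0 members were called, and the medians were -0.0362 for the inducible and 0.00628 for the other members. Depth limits the 12 members under 5 CPM, and many of their intervals run past a fold of 1.5. Those of Hspb8 and Dnajc24, at means of 7.74 and 6.7 CPM, do so too.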
